A study of Mus musculus with 13 samples.

Results

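The Runx2 and Runx3 loci were taken as every Sox9 peak whose centre lay in a fixed window of the mouse genome build mm9, chr17:44560000-45030000 for Runx2 and chr4:134600000-134820000 for Runx3. The windows held 20 of the 27656 rib peaks and 10 of the 17440 nasal peaks, 30 of 45096 in all. Runx2 had 16 of these rib peaks and 9 of the nasal peaks, and Runx3 had 4 rib peaks and 1 nasal peak. Peaks were taken by position alone, with no measured strength. The windows themselves were chosen with earlier results of these data known, so the counts only describe the loci.

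The peaks come from ChIP-seq of the transcription factor Sox9, in which chromatin bound by an antibody is sequenced, in untreated wild-type mice of the ICR strain. The rib group was enzyme-digested rib chondrocytes, the cells that make cartilage, at postnatal day 1, and the nasal group was enzyme-digested chondrocytes of the nasal septum at embryonic day 17.5. Each tissue had 1 Sox9 library made with the same antibody, so tissue and stage differ together, no replicate check is possible, and no test between the tissues was run. The other 11 of the 13 libraries of the series, among them inputs and an IgG control, were not analysed here. The authors divided the rib list into 6794 Class I and 20862 Class II peaks, by a rule that none of the labels states. The lists hold positions and no height, fold or significance, so the read depth behind a peak is unknown. They hold no expression either, so the identity of the cells could not be checked against marker genes.

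Runx2 and Runx3 encode transcription factors that bind DNA through a Runt domain, together with the partner protein Cbfb. In mice Runx2 is required for osteoblasts to form and drives the maturation of chondrocytes to hypertrophy, and Runx3 shares in that maturation. Sox9 is needed to form cartilage and holds chondrocytes in their immature, matrix-making state, and it is known as a repressor of Runx2. Runx genes are read from a distal and a proximal promoter.

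The reference sequences around the annotated gene starts are shown because both genes carry the same tandem Runx site, first read from the Runx2 sequence. They come from RefSeq on GRCm38.p6, each running from 250 bases before to 50 bases after a start. Both genes had an entry, Runx2 with 1 start and Runx3 with 2. Capitals mark the letters ACCACA on either strand, the core of the site that Runx proteins bind.
Runx2, chr17:44814578-44814877, minus strand: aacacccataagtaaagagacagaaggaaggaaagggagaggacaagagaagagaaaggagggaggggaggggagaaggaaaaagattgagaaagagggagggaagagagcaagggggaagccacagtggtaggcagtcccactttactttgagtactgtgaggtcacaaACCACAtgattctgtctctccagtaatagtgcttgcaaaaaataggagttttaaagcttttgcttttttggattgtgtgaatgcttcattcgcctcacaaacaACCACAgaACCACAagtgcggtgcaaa
Runx3, first start, chr4:135120395-135120694, plus strand: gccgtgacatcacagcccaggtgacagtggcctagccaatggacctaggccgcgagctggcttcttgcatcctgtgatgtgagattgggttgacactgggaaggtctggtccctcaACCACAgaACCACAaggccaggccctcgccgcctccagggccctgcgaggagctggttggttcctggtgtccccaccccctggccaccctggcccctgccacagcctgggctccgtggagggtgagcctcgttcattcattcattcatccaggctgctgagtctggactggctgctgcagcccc
Runx3, second start, chr4:135152295-135152594, plus strand: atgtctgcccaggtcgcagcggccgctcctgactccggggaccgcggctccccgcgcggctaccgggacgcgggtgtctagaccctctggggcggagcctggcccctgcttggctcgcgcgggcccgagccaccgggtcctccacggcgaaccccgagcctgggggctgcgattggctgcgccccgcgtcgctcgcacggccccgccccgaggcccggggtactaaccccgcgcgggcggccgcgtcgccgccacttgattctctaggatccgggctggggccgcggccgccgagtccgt

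Runx2 held 3 matches to ACCACA and the first Runx3 start held 2, whereas 16.8% of the 32851 promoters in the RefSeq table held any and 1.81% held 2 or more. In both genes a pair of matches stood in tandem as ACCACAGAACCACA. It began 24 bases after the Runx2 start and 134 bases before the first Runx3 start. Only 4 of the 32851 promoters held this tandem on either strand, those of Runx1, Runx2, Runx3 and Gm16225, a long noncoding RNA gene next to Runx3. The tandem was taken from the Runx2 sequence itself, so the match there was fixed in advance. How rare other strings of its length are was not examined. Whether the Gm16225 match is the same DNA as that of Runx3 was not examined either. The second Runx3 start held no match and had a GC content of 77.3%, above 63.7% at the first start, 45.3% at Runx2 and a median of 52.7% over all promoters. Neither ACAAAG nor ACAATG, letters that Sox proteins bind, occurred on either strand in these 3 sequences, while 28.6% of all promoters held one of them. The starts are placed on GRCm38.p6 and the peaks on mm9, so whether a peak covers a start cannot be told here.

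The Runx2 window held more Sox9 peaks per Mb than the autosomes in both tissues. Because the window was chosen with earlier results of these data known, its counts are a description and not a finding of enrichment. Its 16 rib peaks in 470 kb made 34.0 peaks per Mb, 2.98 times the 11.4 per Mb of the autosomes, and its 9 nasal peaks made 19.1 per Mb, 2.66 times the autosomal 7.21. Chromosome 17 as a whole had 12.97 rib peaks and 8.66 nasal peaks per Mb. When the autosomes were laid out in 5121 tiles of the same width, 7.64% of tiles held at least as many rib peaks and 11.9% at least as many nasal peaks, and the median tile held 3 rib peaks and 2 nasal peaks. The adjoining stretches held fewer peaks than the window, though more than the median tile in both lists. The stretch of equal width before the window held 5 rib and 4 nasal peaks, and the stretch after it held 12 rib and 3 nasal peaks. No peak of either list lay within 50 kb of the window, and the nearest outside it was a Class II rib peak 141 kb beyond its end. The rib peaks spanned 375 kb and the nasal peaks 229 kb, all of the nasal ones within the rib span. Runx2 is 319 kb long in GRCm38.p6, shorter than the rib span, so unless the gene is longer in mm9 at least some rib peaks lie outside it. In GRCm38.p6 it overlaps Supt3, which encodes a subunit of a histone acetyltransferase complex, and the noncoding gene Runx2os3.

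**Figure D1:**
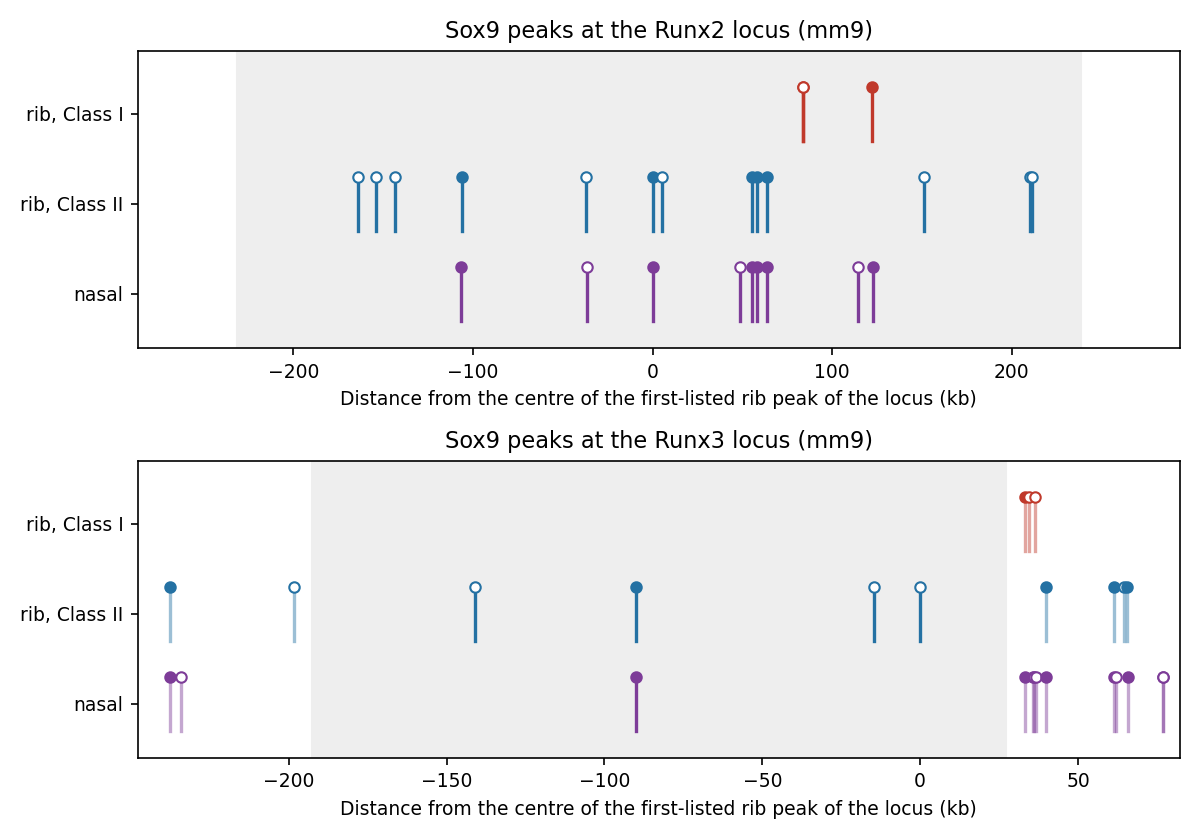
Sox9 peaks at Runx2 (top) and Runx3 (bottom), by distance in kb from the centre of the rib peak that comes first in its list. Grey is the window and the margins show 50 kb on each side. Filled heads mark peaks that share at least 1 bp with a peak of the other tissue. The top panel shows 16 rib peaks and 9 nasal peaks with empty margins (2 adjacent Class I peaks fall on the same spot), and the bottom panel shows 4 rib peaks and 1 nasal peak with a dense group beyond the right edge.

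The Runx2 locus held a group of 3 Class II rib peaks, each matched by a nasal peak. The rib peaks lay at chr17:44846898-44847068, chr17:44849621-44849821 and chr17:44855170-44855303, a chain of 8.41 kb. The matching nasal peaks lay at chr17:44846878-44847046, chr17:44849657-44849819 and chr17:44855171-44855307. Their centres were 21, 17 and 2.5 bp from those of their rib partners, where shared peaks of the whole list had a median of 35 bp. A nasal peak at chr17:44839935-44840125, 6.77 kb from the nearest rib peak, joined these to form a nasal chain of 4 within 15.4 kb. No other group of 3 or more peaks spaced at most 10 kb apart stood in either list at Runx2. Such groups held 28.3% of all rib peaks and 19.1% of all nasal peaks.

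Away from that group, 3 further rib peaks were matched. The Class II peak at chr17:44684995-44685275 contained the whole of the nasal peak at chr17:44685005-44685187. The Class II peak at chr17:44791420-44791606, the first of the locus in the rib list, shared 102 bp with the nasal peak at chr17:44791505-44791685. The Class I peak at chr17:44913803-44914074 shared 204 bp with the nasal peak at chr17:44913871-44914121, with 251 bp the widest nasal peak of the locus. Their centres were 39, 82 and 57.5 bp apart. At chr17:44754548-44754702 a Class II rib peak stood 204 bp from a nasal peak at chr17:44754907-44754986 without touching it.

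Runx2 had 3 Class I peaks, all within 39.1 kb. They made 6.38 per Mb, 2.28 times the autosomal density of Class I, and 17.8% of the tiles held at least as many. Besides the matched one, a pair at chr17:44874946-44875103 and chr17:44875226-44875387 stood 122 bp apart, and the nearest nasal peak was 19.6 kb from the first of them. All 3 lay inside the run of Class II peaks, between the group of 3 matched peaks and the last 3 Class II peaks.

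The outer parts of the Runx2 locus held peaks of the rib list and none of the nasal list. At the low end of the window, Class II peaks at chr17:44627410-44627519, chr17:44637396-44637430 and chr17:44647840-44648051 were the first of the locus, and the nearest nasal peak was 57.5, 47.6 and 37.0 kb away. At the other end, the Class II peak at chr17:44942370-44942709, with 340 bp the widest of the locus, lay 28.2 kb from a nasal peak. The last 2 Class II peaks, chr17:45001697-45001900 and chr17:45002659-45002901, were 758 bp apart, and 87.6 and 88.5 kb from any nasal peak. A further rib peak without a nasal partner, the Class II peak at chr17:44796852-44797141, stood 5.17 kb from the nasal peak it neighbours. In the nasal list, 2 of the 9 peaks had no rib peak within 1 kb, the peak named above beside the matched group and another at chr17:44905578-44905703, 8.10 kb from a Class I peak. Over the whole nasal list 21.9% of peaks had none. In the rib list, 9 of the 16 peaks had no nasal peak within 1 kb, or 56.25% (exact binomial interval 29.9% to 80.2%). Over the whole rib list the share was 50.1%, which lies inside that interval. Rib peaks without a nasal partner are therefore not read as particular to the locus.

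Counted over the Runx2 locus, sharing between the tissues was near that of the whole lists. Nasal peaks overlapped 6 of 16 rib peaks, or 37.5% (95% exact binomial interval 15.2% to 64.6%), against 42.8% of the whole rib list. Rib peaks overlapped 6 of 9 nasal peaks, or 66.7% (29.9% to 92.5%), against 68.2% of the whole nasal list. By class, 1 of 3 Class I peaks was overlapped, against 68.8% over all of Class I. Of the Class II peaks, 5 of 13 were overlapped, or 38.5% (13.9% to 68.4%), against 34.4% over all of Class II. Class II peaks that stood in the rib list between the first and the last Class II peak of the locus were overlapped in 20.2% of cases, a share that lies inside the interval of the locus as well. Class I made up 3 of 16 rib peaks, or 18.8% (4.05% to 45.6%), against 24.6% of the list. Another rib peak lay within 10 kb of 11 of 16 rib peaks, against 52.9% of the list, and another nasal peak within 10 kb of 6 of 9 nasal peaks, against 44.9%. Each of these whole-list shares lay inside the exact interval of the locus. Peaks of a locus share a library and a neighbourhood and are not replicates, and the intervals cover counting error only.

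**Figure D2:**
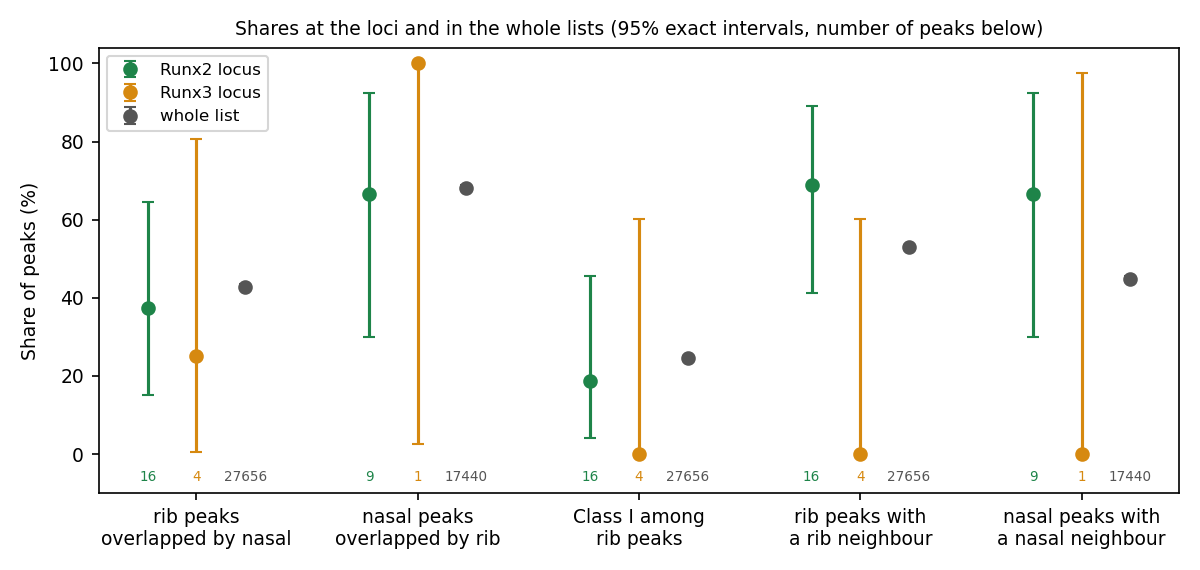
Shares of peaks in percent at Runx2, at Runx3 and in the whole list, with 95% exact binomial intervals. Numbers under the points are the peaks counted, and a neighbour is a peak of the same list within 10 kb. At Runx2 the intervals span the whole-list values, and with 4 rib peaks and 1 nasal peak those of Runx3 are wide.

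The rib peaks of Runx2 stood late in their list, and the nasal peaks around the middle of theirs. No label or header says what the order of the lists stands for, so a place is a description within its own list. The rib peaks had a median place of 17934.5, at 64.8% of the list. Of these 16 rib peaks 3 stood in its first 50%, or 18.8% (95% exact interval 4.05% to 45.6%). The whole-list value, here 50%, lies outside this interval, but the interval treats the places as independent. They are not, since 8 of the 16 rib peaks formed 4 pairs at most 5 places apart, all of them after the first 50%. A departure from the whole list is therefore not read from it. It covers counting error only, and peaks of a locus are not replicates. Class II peaks of the locus had a median of 64.9%, against 45.7% over all of Class II, and the Class I peaks 53.9%, against 61.4% over all of Class I. They ran from place 8889, at 32.1%, to place 26347, at 95.3%. The earliest were the Class II peaks that start at 44791420, 44637396 and 44796852, followed by the matched Class I peak and the first of the Class I pair at places 14917 and 14918. The peak in second place is also the narrowest of the locus, with 35 bp, and 1.85% of rib peaks were narrower. The nasal peaks had a median place of 8651, at 49.6% of the nasal list, and 5 of 9 stood in its first 50%. The earliest nasal peaks were those that start at 44685005, at 19.0%, and at 44846878, at 24.7%. All 5 nasal peaks in the first 50% were shared with rib, and of the other 4 only the peak that starts at 44855171 was, at 94.8%. Of all nasal peaks 68.2% were shared, but the shares in earlier and later parts of the list were not computed. Whether this split is particular to Runx2 therefore cannot be told. In the rib list both shared and unshared peaks were spread over the range.

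Some peaks of the Runx2 locus stood close to each other in the lists, although the lists are not ordered by position. In the rib list, 8 of the 16 peaks stood within 5 places of another peak that lay within 470 kb of them, against 14.2% of all rib peaks. In the nasal list the count was 5 of 9, against 14.1% of all nasal peaks, and for 1 of the 5, at place 3315, that other peak lay outside the window. The measure needs another peak within 470 kb, so it depends on how dense the peaks are. The shares over all peaks were not matched for density, so the difference is not read as particular to the locus. The 8 rib peaks formed 4 pairs within the locus. The Class I peaks at places 14917 and 14918 lay 38.9 kb apart. The Class II peaks that start at 44684995 and 44846898 stood at places 17934 and 17935 and lay 162 kb apart. No order is read here between peaks whose places are this close, since what neighbouring places share was not examined.

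**Figure D3:**
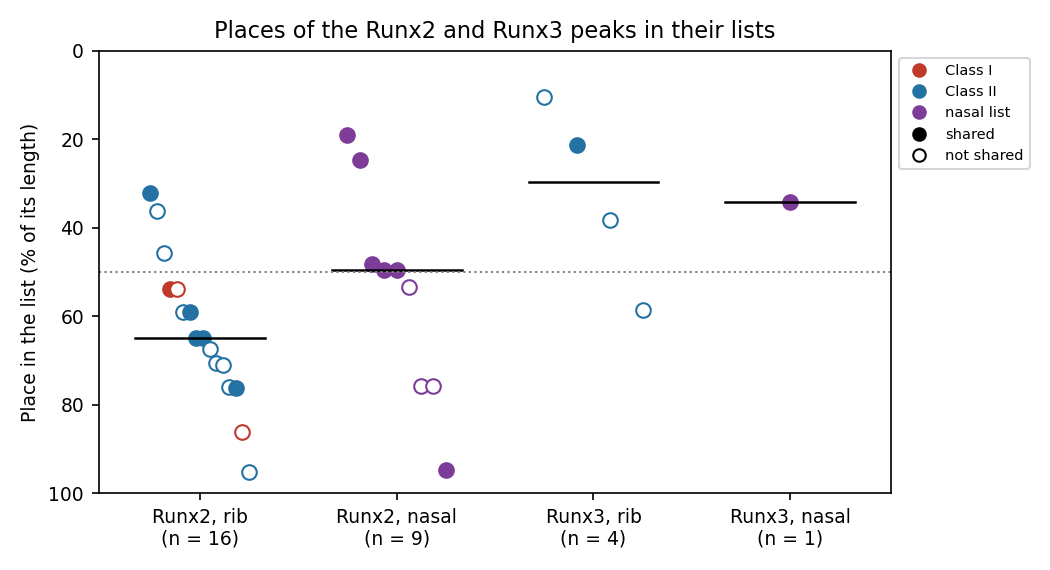
Place of each peak as a percentage of the length of its list, with the start of the list at the top. Bars are medians, at 64.8% for the Runx2 rib peaks, 49.6% for the Runx2 nasal peaks, 29.8% for the Runx3 rib peaks and 34.2% for the single Runx3 nasal peak. Filled points are shared between the tissues and the dotted line is the middle of a list.

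The Runx3 locus held 4 rib peaks and 1 nasal peak. All 4 rib peaks were Class II, and the 0 Class I peaks among 4 allow a share of up to 60.2% by the exact interval. The rib peak at chr4:134702720-134702970 contained the whole nasal peak at chr4:134702745-134702886, with centres 29.5 bp apart. The other rib peaks, at chr4:134651590-134651791, chr4:134777859-134778269 and chr4:134792705-134792819, lay 51.0, 47.7 and 33.2 kb from any nasal peak. None had another rib peak within 10 kb, and the closest pair was 14.4 kb apart. The share of rib peaks overlapped was thus 1 of 4, or 25% (0.631% to 80.6%), against 42.8% of the list. Among Class II peaks standing between the first and last place of the Runx3 peaks, 37.9% were overlapped.

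Of the 4 Runx3 rib peaks, 3 stood in the first 50% of their list, a share of 75% (95% exact interval 19.4% to 99.4%). The last by position was also the first by place, at 2875 or 10.4%, the earliest rib peak of both loci. The shared peak followed at 21.3%, the peak that starts at 134777859 at 38.2%, and the first by position at 58.5%. The peak at 38.2% was with 411 bp the widest of both loci, and 97.98% of rib peaks were narrower. The nasal peak stood at 34.2% of its list. In 220 kb the rib peaks made 18.2 per Mb, 1.59 times the autosomes, and 26.6% of 10914 tiles of that width held at least as many. The nasal peak made 4.55 per Mb, 0.631 times the autosomes, and 49.3% of tiles held at least as many. Runx3 is 57.3 kb long in GRCm38.p6 and the rib peaks spanned 141 kb, so unless the gene is longer in mm9 they do not all lie in it. Its nearest protein-coding neighbours there are Syf2, which encodes a splicing factor, and Clic4, which encodes a chloride intracellular channel protein.

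**Figure D4:**
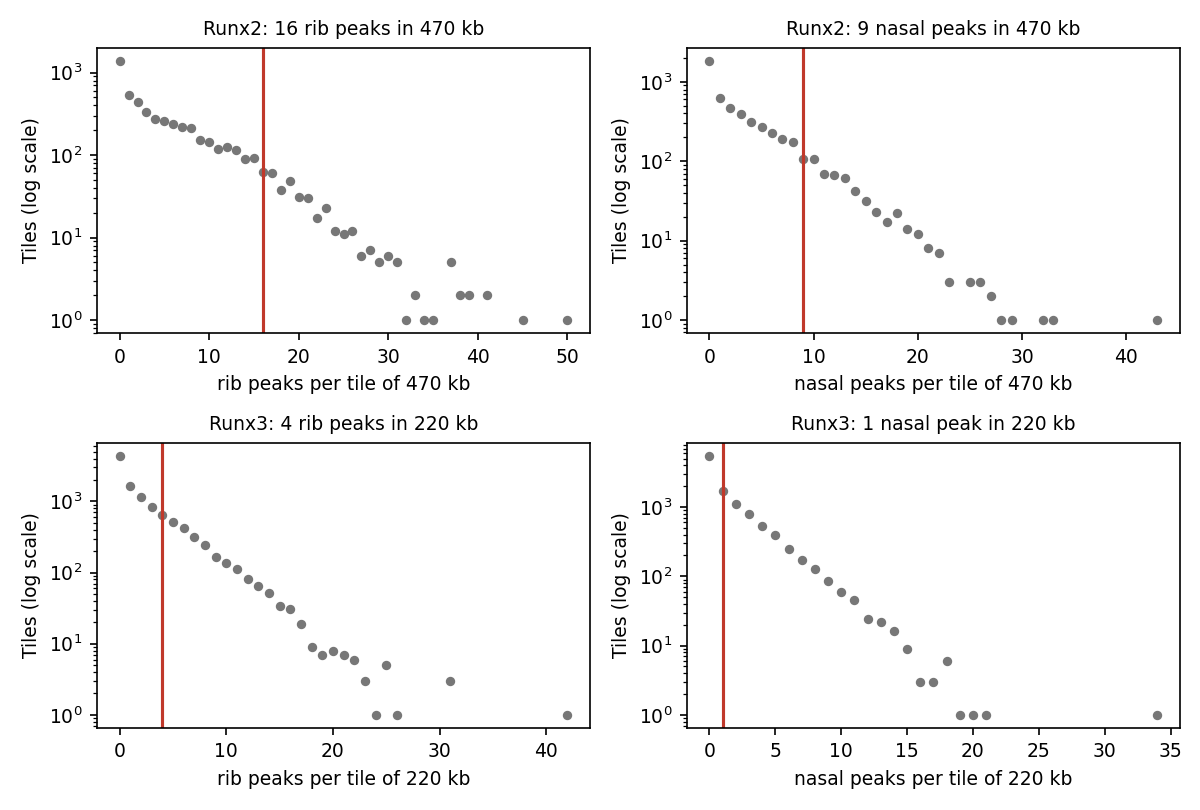
Number of autosomal tiles (log scale) by the Sox9 peaks they hold, for rib (left) and nasal (right), in tiles as wide as the Runx2 window (top, 5121 tiles) and the Runx3 window (bottom, 10914 tiles). The red line is the locus. At Runx2, 7.64% of tiles held at least as many rib peaks and 11.9% at least as many nasal peaks, and at Runx3 26.6% held as many rib peaks and 49.3% as many nasal peaks.

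The Runx3 counts depended on where the window ends. Just inside its end the last rib peak stood 27.2 kb from the edge, and just outside a matched pair began 6.02 kb beyond it in rib, at chr4:134826018-134826207, and 6.01 kb beyond it in nasal, at chr4:134826007-134826231. The 50 kb after the window held 7 rib peaks, 3 of them Class I, and 10 nasal peaks, with 4 shared in each list. Among them the Class II peaks at chr4:134832649-134832814 and chr4:134854168-134854319 stood at places 189 and 549 of the rib list, and the nasal peaks that overlap them at places 641 and 468 of the nasal list. Each of these 4 stood earlier in its own list than any peak inside either window. The 50 kb before the window held 2 Class II rib peaks and 2 nasal peaks. A window widened by 50 kb at each end would hold 13 rib and 13 nasal peaks. In it, 46.2% of the rib and 46.2% of the nasal peaks would be overlapped by the other list, and Class I would make up 23.1% of the rib peaks. At Runx2 the same widening added no peak. Which gene lies in that stretch of mm9 was not examined.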

How the data were processed

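The authors deposited 4 lists of Sox9 peaks, for rib, rib Class I, rib Class II and nasal chondrocytes, as chromosome, start and end. They are on mm9, per the submitters' processing notes. The aligner, the peak caller, the control library, the class rule and the rule of order are not given in these sources. Positions are printed with 1 added to the start. The windows and lists described were chosen with earlier results of these data known. Overlap meant at least 1 shared bp, and bedtools 2.31.1 gave the same counts. Shares carry 95% exact (Clopper-Pearson) binomial intervals for counting error. Tiles were adjoining, from the first to the last peak of each autosome. With 1 library per tissue no test was run. Peaks were named by rule: every Class I peak, the first and last by position, the widest, the earliest 5 of each list, chains of 3 or more, and nasal peaks away from rib peaks. The remaining peaks, the flanking peaks and the Runx tandem were named after their values were seen. Class II shares within a range of places, the 50 kb flanks and places within 5 of each other were also added after the data were seen. Gene names, lengths and neighbours come from RefSeq on GRCm38.p6, with no conversion of positions, and peak sequences on mm9 were not used here. On simulated peaks all 800 planted overlaps and 100 chains were found. The software was numpy 2.4.6, scipy 1.17.1, pandas 2.3.3 and matplotlib 3.10.9 under Python 3.11.15.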

Additional observations from a re-analysis of the deposited data

How the results depend on the processing

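Stability cannot be judged at Runx3, since the exact intervals of its shares, from 4 rib peaks and 1 nasal peak, span most of the scale. At Runx2 it can be judged only roughly. The intervals there ran from 15.2% to 64.6% for rib peaks overlapped and from 29.9% to 92.5% for nasal peaks overlapped. Narrowing the Runx2 window by 20 kb or widening it by 50 kb at each end changed no count, because no peak lay in those margins. Taking the first 50% of each list by place left 3 rib and 5 nasal peaks at Runx2, of which rib peaks overlapped 20% of the nasal ones and Class I made up 0% of the rib ones. A neighbour distance of 5 kb gave 37.5% of rib and 22.2% of nasal peaks at Runx2, where 10 kb gave 68.8% and 66.7%. Widening the Runx3 window by 50 kb at each end gave 13 rib and 13 nasal peaks, of which 46.2% of the rib and 46.2% of the nasal ones were overlapped, where the window as given had 25% and 100%, and raised Class I to 23.1% of the rib peaks, where it had 0%. Raising the neighbour distance to 25 kb gave the Runx3 rib peaks 50%, where 10 kb gave 0%. Fewer peaks, a shorter distance and a wider window are how these alternatives are made. The alternative definitions of overlap gave a rib share at Runx2 of 37.5% to 43.8%. The first 50% of each list gave 33.3%, which is 1 of 3 rib peaks. No paired analysis was possible because each tissue has 1 Sox9 library. Depth is unknown, so a peak missing from a list is not read as missing binding.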

Other observations

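At Runx2, 1 Class II peak was 35 bp wide, below the 100 bp at the low end of the sheared fragments, and stood among the earliest of the locus. The nasal peak at chr17:44754907-44754986 was below it too, with 80 bp, and 5.84% of nasal peaks were narrower still. In the rib list 1.85% of peaks were narrower than 35 bp, and 13.96% measured less than 110 bp. The narrowest peak of the whole rib list measured 4 bp.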
